A study of Mus musculus with 8 samples.

Results

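The 8 E2F transcription factor genes E2f1 to E2f8 and the genes of the retinoblastoma-like proteins, Rbl1 and Rbl2, were followed on Agilent arrays of murine pituitary corticotroph tumor AtT20 cells. They were chosen by name, through the RefSeq transcript that each array probe was designed on, and make up 10 of the 19751 genes with a named probe. Their 13 probes include 12 that were bright enough to be tested, so that 9 of the 10 genes stand among the 15319 genes tested. E2f4 was the gene left without a test.

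AtT20 is a mouse cell line that secretes ACTH. HX630 is a man-made RXR agonist, RXR being the retinoid X receptor, which acts as a partner of other nuclear receptors. The HX630 group held 4 samples incubated with 10 μM HX630 for 48 hr, and the control group held 4 samples kept for the same 48 hr without it. Both groups were cells of this single line in multiwell plates, moved at partial confluence to DMEM with 1% stripped serum, and each sample was hybridized to 1 array with 1 dye. The comparison asks which of these genes differ in expression after the agonist, in an experiment set up around proliferation and apoptosis of the tumor cells.

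E2F proteins bind promoters of genes for DNA replication, mostly as dimers with a DP protein, and the retinoblastoma protein Rb1 holds the activating E2Fs in check until cyclin-dependent kinases phosphorylate it. E2f1, E2f2 and E2f3 are the activators. E2f4 and E2f5 work with Rbl1 and Rbl2 in resting cells as parts of the repressive DREAM complex, E2f6 represses with Polycomb proteins, and E2f7 and E2f8, the atypical members, bind DNA without DP or Rb-family partners and shut E2F targets down late in S phase. Several of these genes are E2F targets themselves, and mice heterozygous for an Rb1 deletion develop pituitary tumors.

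Promoter windows were read from a RefSeq table of mouse build GRCm38.p6, running from 250 bases before each start site to 50 after it. The letters searched were TTTCCCGC, TTTGGCGC, TTTCGCGC and TTTGCCGC, the common spellings of the E2F motif, on either strand, and no match shown overlaps another. The table holds windows for 8 of the 10 genes (not E2f4 or E2f5), and 4 of those 8 (50%) hold a match, beside 704 of 27025 genes (2.6%) and 744 of 32851 windows (2.26%) in the whole table. The matching stretches are shown because they carry the motif of the very family described here, in capitals, each on its gene's strand.
E2f2, chr4:136172294-136172323, plus strand, motif 39 bases after the start site: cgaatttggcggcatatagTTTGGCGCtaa
E2f3, chr13:29986034-29986134, minus strand, motif from 11 bases before the start site: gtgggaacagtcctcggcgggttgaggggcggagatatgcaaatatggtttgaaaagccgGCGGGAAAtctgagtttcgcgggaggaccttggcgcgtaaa
E2f7, chr10:110745189-110745308, plus strand, motif from 198 bases before the start site: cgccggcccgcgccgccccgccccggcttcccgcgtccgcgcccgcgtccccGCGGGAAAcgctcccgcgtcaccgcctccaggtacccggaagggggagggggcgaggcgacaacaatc
Rbl1, chr2:157204505-157204612, minus strand, motif from 18 bases before the start site: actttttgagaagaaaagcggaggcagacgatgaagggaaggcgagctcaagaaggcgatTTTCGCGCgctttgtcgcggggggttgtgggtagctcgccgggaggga
In E2f3 and E2f7 the match lies on the opposite strand, so its reverse complement is in capitals. E2f2 and E2f3 each have another start site in the table, with windows at chr4:136180532-136180831 and chr13:29984342-29984641, and those windows do not hold these letters. Neither do the windows of E2f1, E2f6, E2f8 and Rbl2. A match is a description of sequence and does not show binding.

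Signals are given on the log2 scale relative to the 75th percentile of the array, so that 0 is the 75th percentile and 1 unit is a 2-fold difference. A gene was called when its adjusted p in limma was below 0.01 and its fold change was above 1.5. Of all genes tested, 8.38% were called higher and 11.2% were called lower with HX630, while 24% and 27.2% passed the adjusted p alone as higher and lower. In 61.5% of the genes the 4 control arrays and the 4 HX630 arrays did not overlap. From 69.7% to 73.5% of the probes on an array were well above background, and no member probe was saturated or had an outlier spot. The arrays lay on 2 slides of 4, and each slide held 1 group, so slide and treatment cannot be told apart. Nothing in the labels says that the samples were separate cultures, so the p-values measure the spread between these samples, which may be technical. The RNA came from whole cell populations, so fewer cells expressing a gene and less of its RNA per cell cannot be told apart.

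By its brighter probe, E2f7 changed most of the 9 tested genes, at 1.86-fold higher with HX630. It was the only one called, 1 of 9, beside 8.38% of all genes called higher. That rank and that call rest on the brighter probe: with both E2f7 probes averaged its log2 fold change was 0.50, under the 0.56 of E2f1 and of E2f2, and 0 of the 9 genes were called. At a threshold on the adjusted p alone, 6 of the 9 tested genes, namely E2f1, E2f2, E2f3, E2f7, E2f8 and Rbl1, were higher at a limma adjusted p below 0.01, against 24% of all genes. In limma 0 were lower at that threshold, against 27.2% of all genes, and 0 at an unadjusted p below 0.05. The same 6 genes were those whose 2 groups of arrays did not overlap, against 61.5% of all genes, and the median change of the 9 was 0.31 on the log2 scale beside -0.03 over all genes tested.

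**Figure D1:**
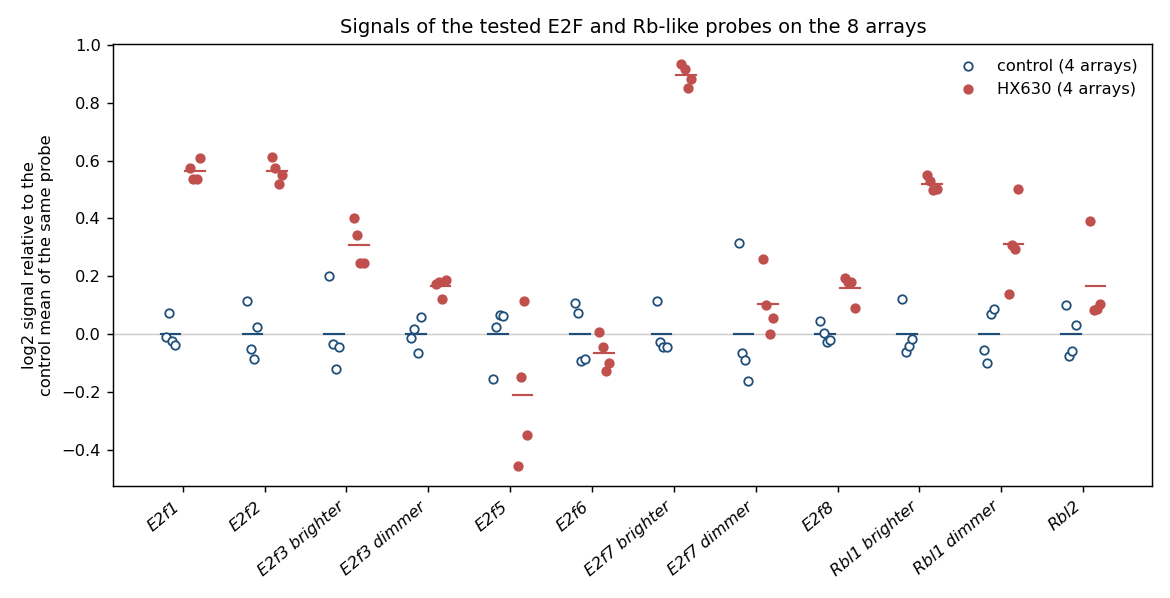
Log2 signal of the 12 tested probes on each of the 8 arrays (y axis, log2 units), set relative to the control mean of the same probe; open circles are control arrays, filled circles HX630 arrays and dashes the group means. E2f1, E2f2, the brighter E2f7 probe and the brighter Rbl1 probe stand clear of the controls, with the 4 E2f7 arrays highest, while the groups of E2f5, E2f6, Rbl2 and the dimmer E2f7 probe overlap.

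Among the activators, E2f1 and E2f2 were higher by almost the same amount. E2f1, an activator of S-phase genes that can also drive apoptosis, had signals of 2.05, 2.14, 2.04 and 2.03 on the control arrays and 2.64, 2.60, 2.60 and 2.67 on the HX630 arrays. The lowest HX630 array lay 0.46 above the highest control array. The mean went from 2.06 ± 0.05 to 2.63 ± 0.0352 (SD, n = 4 each), a log2 fold change of 0.56 (SE 0.0382, 95% interval 0.47 to 0.65, limma adjusted p = 8.69e-06). At 1.48-fold this fell just short of the 1.5-fold threshold.

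E2f2, the activator that carries the motif shortly after its start site, had signals of 2.95, 2.78, 2.75 and 2.86 without HX630 and 3.45, 3.41, 3.35 and 3.38 with it. Every HX630 array was above every control array, by at least 0.40. The means were 2.83 ± 0.0894 and 3.40 ± 0.0403 (SD, n = 4 each), and the log2 fold change of 0.56 (SE 0.0511, 95% interval 0.45 to 0.68, limma adjusted p = 4.32e-05) was also 1.48-fold and not called. Both genes sat close to the threshold. E2f1 passed it, at just over 1.5-fold, without control replicate 2, E2f2 passed it, at 1.52-fold, without control replicate 1, and both passed it under the background correction and under 3 of the 4 other scalings tried.

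E2f3, the activator made in a longer and a shorter form from separate start sites, has a pair of tested probes. The brighter read -0.41, -0.64, -0.73 and -0.65 on the control arrays and -0.20, -0.27, -0.36 and -0.36 on the HX630 arrays. The groups were separate by only 0.0438, with control replicate 1 nearest to the HX630 arrays. The log2 fold change was 0.31 (SE 0.0758, 95% interval 0.13 to 0.49, limma adjusted p = 0.00883), or 1.24-fold. The dimmer probe gave -3.41, -3.38, -3.46 and -3.34 against -3.23, -3.22, -3.28 and -3.21, which is a log2 fold change of 0.17 (SE 0.0377, limma adjusted p = 0.00632). The difference between the probes, 0.14 on the log2 scale, did not pass the test (exact permutation, two-sided, p = 0.114, 95% interval -0.16 to 0.33). Without control replicate 1 the adjusted p of the brighter probe was 0.000847, and without any other single array it was 0.0159 to 0.027.

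The change in E2f3 was smaller than that in the other activators. By exact permutation of the 8 arrays, two-sided, E2f1 exceeded E2f3 by 0.25 on the log2 scale (95% interval 0.0639 to 0.57) and E2f2 exceeded it by 0.26 (0.145 to 0.39), each with p = 0.0286, the smallest that 4 against 4 arrays allow, and 0.0358 after Benjamini-Hochberg adjustment over the 5 pairs of genes compared. By the same exact permutation, E2f1 and E2f2 differed by -0.0014 with p = 1 and an interval of -0.17 to 0.18, which leaves room for a difference of that size in either direction.

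Of the repressors, E2f7 rose and E2f8 was higher by a small amount, while E2f5 and E2f6 were not separated from the controls. E2f4, the repressor that is the main DNA-binding E2F of resting cells, was well above background on 1 control array and on 0 HX630 arrays. Its processed signal, the scanner's background-subtracted intensity, ran from 3.34 to 23.5 on the control arrays and from 3.38 to 14 on the HX630 arrays, and no change can be given for it.

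E2f5, which works with Rbl2 in resting cells, had signals of -2.46, -2.28, -2.24 and -2.24 on the control arrays and -2.76, -2.45, -2.19 and -2.65 on the HX630 arrays. The groups overlap, because HX630 replicate 3 was above all controls. The log2 fold change was -0.21 (SE 0.123, 95% interval -0.50 to 0.0774, limma adjusted p = 0.181). It was -0.128 without HX630 replicate 1 and -0.317 without HX630 replicate 3 (limma adjusted p = 0.377 and 0.0238). E2f6, the Polycomb-linked repressor, read 2.77, 2.74, 2.57 and 2.58 without HX630 and 2.67, 2.62, 2.54 and 2.57 with it. Here too the groups overlap, with a log2 fold change of -0.0665 (SE 0.0595, 95% interval -0.21 to 0.072, limma adjusted p = 0.369). The sign of both genes rests on the scaling: scaled to the spike-in probes, E2f5 was at 0.0114 and E2f6 at 0.155. Relative to the median of all genes, E2f5 stood at -0.175 and E2f6 at -0.0322 under both main and spike-in scaling. With normexp background correction E2f6 stood at 0.058 relative to that median.

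E2f7, an atypical repressor with a motif match in its promoter window, is measured by a pair of probes on the same transcript, and they did not give the same answer. The brighter had signals of 0.92, 0.78, 0.76 and 0.76 on the control arrays and 1.74, 1.72, 1.66 and 1.69 on the HX630 arrays. The HX630 arrays lie in a narrow band 0.74 above the highest control, which is control replicate 1. The mean went from 0.80 ± 0.0768 to 1.70 ± 0.0361 (SD, n = 4 each), a log2 fold change of 0.90 (SE 0.0462, 95% interval 0.79 to 1.0, limma adjusted p = 2.05e-06).

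The dimmer E2f7 probe read -2.44, -2.82, -2.85 and -2.92 on the control arrays and -2.49, -2.65, -2.76 and -2.70 on the HX630 arrays. Control replicate 1 was the highest of all 8 arrays, and the groups overlap. The log2 fold change was 0.10 (SE 0.111, 95% interval -0.15 to 0.36, limma adjusted p = 0.445). The probes differed by 0.79 in their change (exact permutation, two-sided, p = 0.0286, 95% interval 0.56 to 1.05, adjusted p = 0.0858 over the 3 genes with a pair of probes). With the mean of both probes in place of the brighter, the log2 fold change of E2f7 was 0.50 and the gene was not called.

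E2f8, the other atypical repressor, had signals of 0.97, 0.93, 0.90 and 0.91 on the control arrays and 1.12, 1.11, 1.11 and 1.02 on the HX630 arrays. All HX630 arrays were above the controls, the lowest, replicate 4, by 0.0448. The log2 fold change of 0.16 (SE 0.0371, 95% interval 0.0739 to 0.25, limma adjusted p = 0.00674) is 1.12-fold. E2f7, by its brighter probe, exceeded E2f8 by 0.74 (95% interval 0.61 to 0.82, exact permutation, two-sided, p = 0.0286, adjusted over 5 pairs 0.0358). By its dimmer probe E2f7, at 0.10, lay below E2f8, and that difference was not tested. The adjusted p of E2f8 stayed under 0.01 without control replicate 1 or without HX630 replicate 4, and was 0.0149 to 0.0242 without any other single array.

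**Figure D2:**
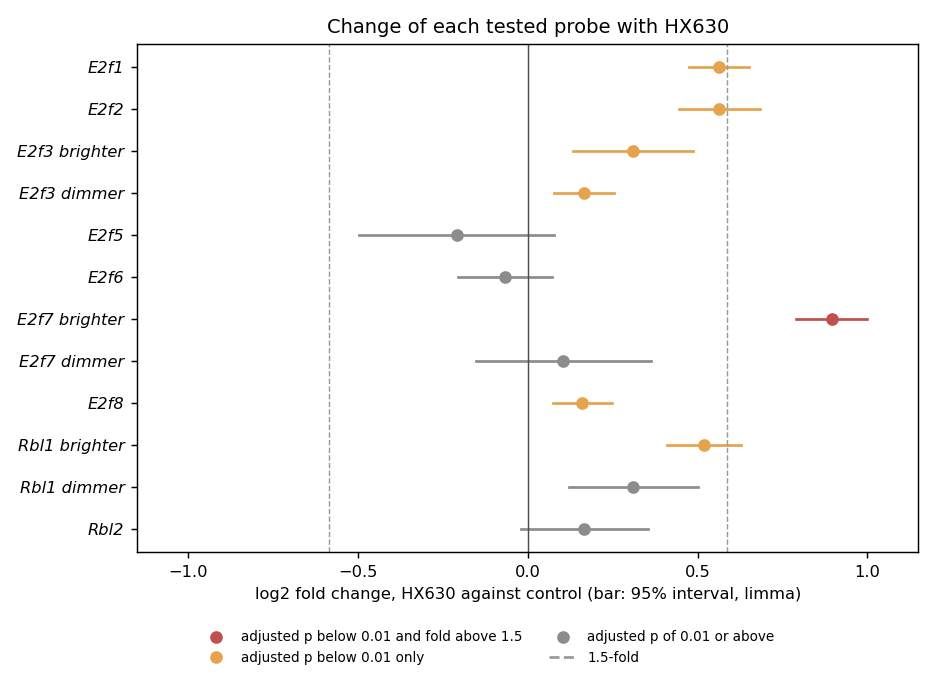
Log2 fold change of each tested probe with HX630 (x axis, log2 units), with bars for the 95% interval from limma and dashed lines at 1.5-fold. The brighter E2f7 probe alone lies past 1.5-fold with its whole interval, the intervals of E2f1, E2f2 and the brighter Rbl1 probe cross that line, and those of E2f5, E2f6, Rbl2 and the dimmer E2f7 probe hold 0.

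Of the Rb-like proteins, Rbl1 was higher, and the arrays of Rbl2 overlapped between the groups. Rbl1, which is itself made in proliferating cells and binds repressor E2Fs, read 1.01, 0.82, 0.85 and 0.87 at its brighter probe on the control arrays and 1.44, 1.42, 1.38 and 1.39 on the HX630 arrays. Its groups lie 0.377 apart. The mean went from 0.89 ± 0.0824 to 1.41 ± 0.0248 (SD, n = 4 each), a log2 fold change of 0.52 (SE 0.0467, 95% interval 0.41 to 0.63, limma adjusted p = 4.16e-05), or 1.43-fold and not called. The dimmer probe, designed on another Rbl1 transcript, gave -3.92, -3.97, -3.80 and -3.78 against -3.73, -3.56, -3.57 and -3.37. These groups do not overlap either, with a log2 fold change of 0.31 (SE 0.0816, limma adjusted p = 0.012). The difference between the 2 probes was 0.21 (95% interval -0.17 to 0.51, exact permutation, two-sided, p = 0.114).

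Rbl2, the Rb-like protein that gathers DREAM in resting cells, had signals of -3.83, -4.01, -3.99 and -3.90 on the control arrays and -3.54, -3.85, -3.85 and -3.83 on the HX630 arrays. The groups overlap slightly, and HX630 replicate 1 stands above the other 3. The log2 fold change was 0.17 (SE 0.0804, 95% interval -0.021 to 0.35, limma adjusted p = 0.112), and it was 0.0913 without HX630 replicate 1. The value of Rbl2 moved with the scaling: it was 0.0319 with normexp background correction (limma adjusted p = 0.814), but 0.26 with quantile normalization (0.00773), 0.25 with median scaling (0.00861) and 0.39 with spike-in scaling (0.00366). Rbl1 exceeded Rbl2 in change by 0.35 (95% interval 0.143 to 0.49, exact permutation, two-sided, p = 0.0286, adjusted over 5 pairs 0.0358).

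Set side by side by role, all 3 activators were higher at an adjusted p below 0.01, beside 24% of all genes. Their median change was 0.56, with a range of 0.31 to 0.56. Of the 4 tested repressors, 2 were higher at that threshold, both of the atypical kind, with a median of 0.0469 and a range of -0.21 to 0.90. Of the Rb-like pair 1 was, with a median of 0.34. E2f3 and E2f8 did not keep that threshold without most of the single arrays. With 1 probe per gene the repressors hold both the highest and the lowest change of the family. With all probes averaged, E2f2 and E2f1, at 0.56 each, lay above E2f7 at 0.50. The difference between the roles was not tested. Ranked by change among the 15319 genes, E2f7 stood at percentile 95.6, E2f2 at 89.8, E2f1 at 89.7, Rbl1 at 88.4 and E2f3 at 79.2. Rbl2 stood at 69.1, E2f8 at 68.6, E2f6 at 46.6 and E2f5 at 33.2.

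**Figure D3:**
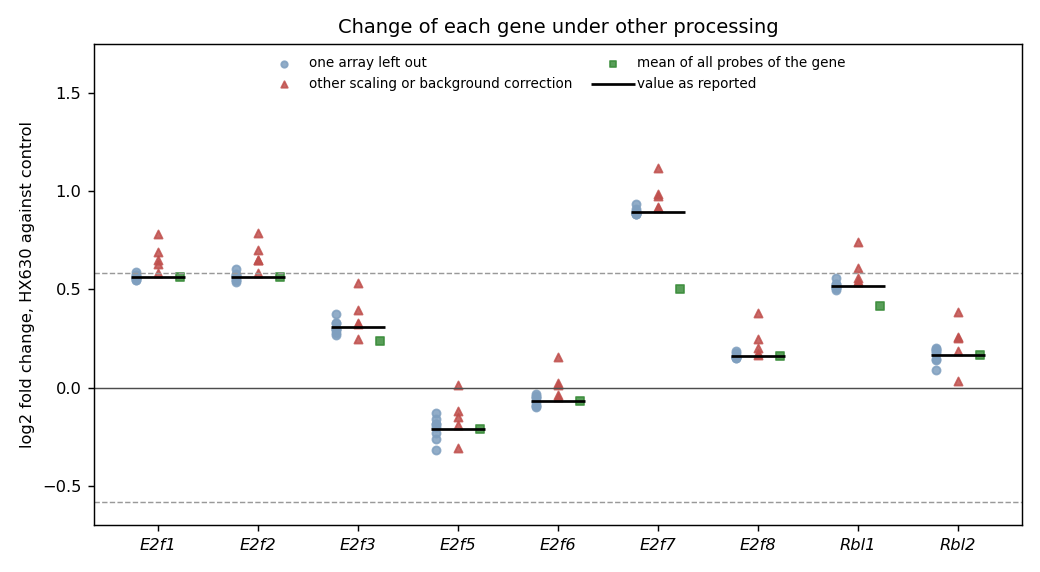
Log2 fold change of the 9 tested genes (y axis, log2 units) as reported (black dash), with each array left out in turn (circles), under 5 other background corrections or scalings (triangles) and with all probes averaged per gene (squares); dashed lines mark 1.5-fold. E2f7 stays the highest gene among the circles and triangles and drops to 0.50 with the mean of its probes, while E2f5 and E2f6 move across 0 under other scalings.

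The genes whose 8-array pattern lay nearest to that of the brighter E2f7 probe were not E2F family members. Over 18701 probes, measured as the root mean square difference in log2 signal relative to the control mean, they were Atl1, a GTPase that shapes the endoplasmic reticulum, at 0.0235, Socs2, a suppressor of cytokine signaling, at 0.0251, and Kif24, a kinesin of the centriole, at 0.0282. Their log2 fold changes were 0.90 for Atl1, 0.91 for Socs2 and 0.92 for Kif24. The measure depends on the size of the change, so only genes with a change near that of this E2f7 probe can lie near it. E2f2 was the nearest family member at rank 1015, with a difference of 0.237, before E2f1 at rank 1073 and Rbl1 at rank 1265.

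The partners of the family moved in both directions. Of the 10 partner and MuvB core genes, 5 were higher and 1 was lower at an adjusted p below 0.01, beside 24% and 27.2% of all genes, and the median change was 0.18. Rb1 itself was higher by 0.33 on the log2 scale (SE 0.0551, limma adjusted p = 0.0012), and Lin9, a subunit of the MuvB core of DREAM, by 0.47 (SE 0.0538, limma adjusted p = 0.000157). The DP partner Tfdp1 had a log2 fold change of -0.0099 (SE 0.0469, limma adjusted p = 0.871). The other DP partner, Tfdp2, was the called gene of this list, with signals of 0.19, 0.14, 0.0371 and 0.0751 on the control arrays and -0.59, -0.68, -0.75 and -0.69 on the HX630 arrays. It fell by 0.79 on the log2 scale (SE 0.0488, limma adjusted p = 5.34e-06), and its other probe fell by 0.55. Scaled to the spike-in probes, Tfdp2 was at -0.57 and not called.

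Of the 11 Polycomb genes that work with E2f6, 1 was higher and 2 were lower at an adjusted p below 0.01, both smaller shares than the 24% and 27.2% of all genes, with a median of 0.0113. Rybp, which binds the Polycomb ubiquitin ligase, was called and fell by 0.65 (SE 0.0377, limma adjusted p = 3.97e-06), but was not called under quantile, median or spike-in scaling, where it lay between -0.58 and -0.42. Of the 6 genes for D cyclins and G1 kinases, 4 were tested (not Ccnd2 or Cdk6), with 2 higher and 2 lower at that threshold, beside the same shares of all genes, and a median of -0.10. Ccnd3, a D cyclin, read 1.70, 1.90, 1.74 and 1.67 on the control arrays and 1.17, 1.04, 1.07 and 0.95 on the HX630 arrays. It fell by 0.70 (SE 0.0663, limma adjusted p = 5.72e-05), with -0.57 at its other probe and -0.48, not called, under spike-in scaling.

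The E2F targets of the G1/S step were mostly higher. Of 43 genes 42 were tested (not Ccne2), and 37 were higher and 0 lower at an adjusted p below 0.01, beside 24% and 27.2% of all genes. The threshold with 1.5-fold was passed by 10 as higher, beside 8.38% of all genes, and the median change was 0.40 with a range of -0.32 to 1.44. Cdc6, which loads the replicative helicase, had signals of -2.77, -2.70, -2.82 and -2.79 on the control arrays and -1.29, -1.34, -1.33 and -1.36 on the HX630 arrays, and rose by 1.44 on the log2 scale (SE 0.0372, limma adjusted p = 1.33e-07). Ccne1, the cyclin that opens S phase, rose by 0.75, Uhrf1, which helps maintain DNA methylation, by 0.75, and Slbp, the histone mRNA-binding protein, by 0.72. The gene below 0, and the 1 lower at an unadjusted p below 0.05, was Ung, a uracil glycosylase, at -0.32 (limma adjusted p = 0.0431). The motif stood in the promoter windows of 15 of the 34 genes of this list that have one (44.1%), a list of known E2F targets.

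DREAM targets of G2/M, which are read later in the cycle, lay closer together. Of 25 genes 24 were tested (not Aurkb), all 24 had a change above 0, and 21 were higher and 0 lower at an adjusted p below 0.01, beside 24% and 27.2% of all genes. The median was 0.31 with a range of 0.14 to 0.71. With the 1.5-fold threshold 1 of the 24 was called higher, a smaller share than the 8.38% of all genes. Nusap1, a protein of the mitotic spindle, was the called gene, and it rose by 0.71 (limma adjusted p = 3.01e-06). Spike-in scaling moved the count of called genes from 1 to 10 in this list and from 10 to 23 in the G1/S list. The same scaling moved the count of all probes called higher from 2131 to 4180. It moved the median change of all genes from -0.03 to 0.19. Among the promoter windows of the G2/M list, 1 of 19 (5.26%) held the motif.

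Of 10 cell death genes linked to E2f1, 9 were tested (not Pmaip1), with 6 higher and 2 lower at an adjusted p below 0.01, beside 24% and 27.2% of all genes, and a median of 0.36. Of the tested genes 4 were called, all as higher, beside 8.38% of all genes. Casp9, the initiator caspase of the mitochondrial route, had signals of 0.12, 0.0221, 0.0587 and 0.0691 on the control arrays and 0.85, 0.85, 0.75 and 0.79 on the HX630 arrays, and rose by 0.74 on the log2 scale (SE 0.0385, limma adjusted p = 2.1e-06). Casp8, the initiator caspase of the death receptor route, rose by 0.63 (SE 0.0382, limma adjusted p = 4.81e-06). The genes at -0.46 and -0.30, both with an adjusted p below 0.01 in limma, were Trp73, a relative of p53, and Bbc3, a BH3-only death protein. Apaf1, the scaffold of the apoptosome, had a log2 fold change of -0.0432 (limma adjusted p = 0.649). None of the 7 promoter windows of this list held the motif.

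**Figure D4:**
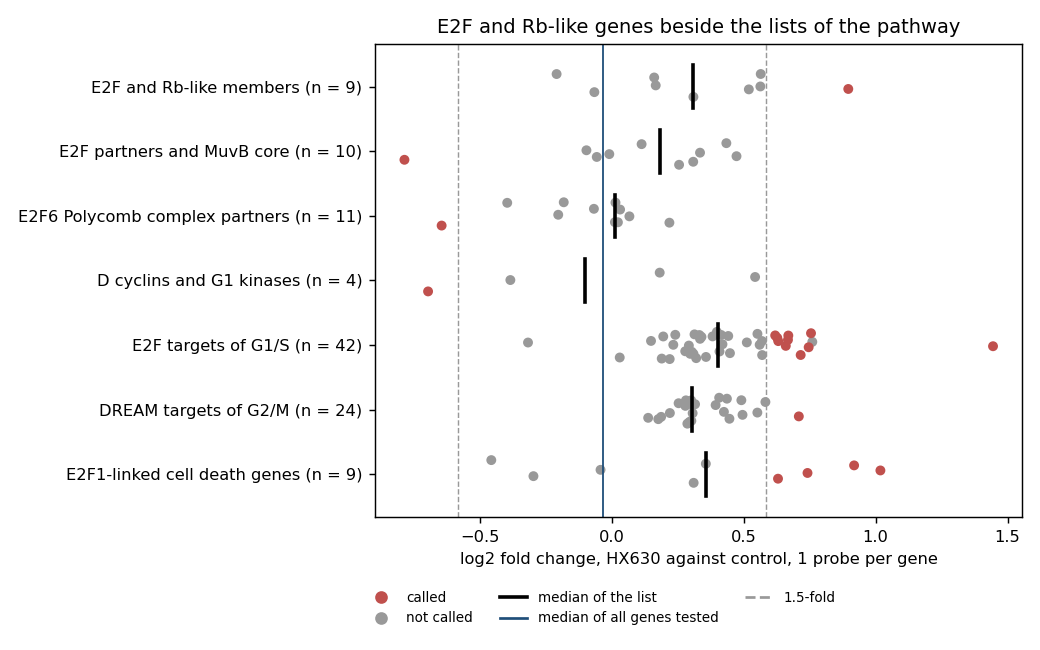
Log2 fold change with HX630 (x axis, log2 units) of the 9 tested E2F and Rb-like genes and of the 6 gene lists of the pathway, 1 probe per gene; red points are called, black bars are list medians and the blue line is the median of all genes tested, -0.03. The targets of G1/S and of G2/M lie almost wholly to the right of the blue line, with medians of 0.40 and 0.31, while the Polycomb partners and D cyclins spread to both sides.

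The labelled cell type was checked against its markers. All 6 corticotroph markers were well above background on all 8 arrays, and their summed signal relative to the 75th percentile was 301 to 376 on the control arrays and 218 to 228 on the HX630 arrays. In this list Pcsk1, the convertase that cuts the ACTH precursor, was called lower by -2.06, and Crhr1 and Neurod1 were called higher, by 1.11 and 0.72. Over all genes 11.2% were called lower and 8.38% higher. At an adjusted p below 0.01 in limma 4 of the 6 markers were lower and 2 higher, beside 27.2% and 24% of all genes. The other lower ones were Pomc, the ACTH precursor, at -0.45, Tbx19 at -0.37 and Pitx1 at -0.32. Of 8 markers of other pituitary cells, 3 were above background on all arrays and Prl, Tshb and Cga on none, with sums of 0.332 to 0.505 and 0.319 to 0.379. Of 7 markers of stromal, vessel and immune cells, 5 were above background on all arrays and Cdh5 on none, with sums of 0.377 to 0.428 without and 0.273 to 0.346 with HX630. Gh and Pecam1 were called lower, at -0.79 and -0.59, and both lost the call under spike-in scaling, among other settings. The sums of the corticotroph list and of the stromal list were lower with HX630 without overlap, and their part in the E2F values was not tested. Signals were summed on the linear scale, so Pomc and Pcsk1 weigh most in the corticotroph sum. Their control means were 8.03 and 6.16 on the log2 scale. The fall of that sum does not mean that all its markers fell.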

How the data were processed

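Total RNA of 8 AtT20 samples was labelled with Cy3 and hybridized to Agilent mouse 4x44K arrays. Per the labels and methods, the authors scanned them with Agilent Feature Extraction 10.7.3.1, and the deposited scanner files hold processed signal intensity per spot, background subtracted and detrended. The deposited log2 table equals, per array and up to a constant, log2 of that intensity relative to its 75th percentile over probes, and its column medians run from -3.67 to -3.91. No column of per-sample values was left unused.

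From 44397 spots, 1377 control spots and outlier spots were left out and spots of a probe averaged, giving 39429 probes. The log2 intensity minus the 75th percentile of the array (intensities of 1335 to 1899) was compared in R 4.3.3 with limma 3.58.1 (lmFit, eBayes), with Benjamini-Hochberg adjustment over the 28552 probes that stood well above background on 4 or more of 8 arrays. Probe accessions gave 26055 probes (66.1%) a symbol through a RefSeq table of GRCm38.p6, and 20040 of these were tested. The brightest tested probe stands for a gene. Of 70 regroupings of the arrays, the smallest two-sided p is 0.0286. Intervals of differences between genes come from inverting that test. The number of arrays limits the precision.

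On simulated data for this comparison, with 28542 probes and 200 changed by 1 on the log2 scale, 75% were recovered, with 0 false calls. In lists, up to 4 called genes with the largest change are named (some are not reported here), and the 3 nearest profiles are those of the member with the largest change. Other genes in the text (Rb1, Lin9, Tfdp1, Ung, Trp73, Bbc3, Apaf1, Pomc, Tbx19, Pitx1) and the gene pairs were chosen after their values were seen. The members and lists were chosen with earlier results of these data known. Alternatives covered background correction, scaling, the filter, the test, thresholds, the replicate block, the probe rule and leaving out each array.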

Additional observations from a re-analysis of the deposited data

Results flagged for a closer look

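In 6 of 64 groups of 4 arrays examined, 1 array stood apart from the other 3 by more than Dixon's limit for the gap over the range, where chance would give about 3.2; 3 of them were among the 24 groups of the E2F and Rb-like probes. For the brighter E2f7 probe, control replicate 1 read 0.92 and the other controls averaged 0.77 (gap over range 0.896). For E2f8, HX630 replicate 4 read 1.02 and the others 1.11 (0.86). For Rbl2, HX630 replicate 1 read -3.54 and the others -3.84 (0.933). For Nusap1, control replicate 3 read 1.67 and the others 1.78 (0.857). For Gh, HX630 replicate 4 read -5.64 and the others -5.95 (0.857). For Kif24, control replicate 1 read -2.34 and the others -2.47 (0.885).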

How the results depend on the processing

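Of the 10 genes, 1 (E2f7) was called as reported, 3 with normexp background correction and 3 with quantile normalization (E2f1, E2f2 and E2f7), 4 with median scaling and 4 with spike-in scaling (also Rbl1), 6 without a fold threshold, and 0 with all probes averaged per gene. Leaving out each array in turn gave 1 to 2 of these genes, and 4872 to 5447 probes called. Over all probes, 5315 were called (40.1% of them higher), 13008 without a fold threshold, and 5235 by the methods' t-test without adjustment. The share higher was 31.7% with normexp, 49.8% with quantile, 51.6% with median and 68.9% with spike-in scaling, which moved the median of all genes by 0.221 on the log2 scale. Relative to that median E2f7 stood at 0.93 under both main and spike-in scaling, and E2f6 at -0.0322. E2f6 reversed to 0.0111 with quantile, 0.0209 with median and 0.155 with spike-in scaling, and E2f5 to 0.0114 with spike-in scaling. The counts of E2F and Rb-like genes higher at adjusted p below 0.01 ran from 4 to 7 (Rbl2 being the seventh, with quantile, median and spike-in scaling), and 0 were lower in every setting run. With the replicate block, 5555 probes and 1 of these genes were called, and E2f8 had an adjusted p of 0.0112; same-numbered arrays correlated at 0.523, -0.00926, 0.243 and 0.381, and 2 of the 4 numbers matched best with their own, so the numbers were not taken as pairs. The cause of these shifts was not tested.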
